A study of Mus musculus with 4 samples.

Results

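Desmosomes are the spot junctions that rivet neighbouring epithelial cells together, and cornification is the last step of epidermal differentiation, in which keratinocytes build a crosslinked protein envelope. Dsc2, Jup, Pkp1, Dsp, Perp, Sprr1a, Sprr1b and Dmkn are genes of these processes. Grouped with them are Fabp5, listed with epidermal barrier lipid genes, and Sfn, of the 14-3-3 proteins. These 10 genes are described here. They were chosen by name, with their earlier measured difference between the same arrays known, from 18193 measured genes, and every probe set whose annotation named 1 of them was taken. All 10 were measured, by 14 probe sets. Where a gene had several, the brightest by its mean over the 4 arrays stood for the gene, and the others are given beside it.

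The arrays came from K7M2, a mouse osteosarcoma cell line that spreads readily to the lung, grown in serum-containing medium. The cells over-expressed ezrinT567A-GFP (3 arrays, replicates 1 to 3) or GFP alone (1 array). Ezrin ties the plasma membrane to cortical actin, and in ezrinT567A a regulatory threonine near the C-terminus is an alanine. The sources used here do not name the promoter of the constructs or say whether the cells were clones or pools. Whether the replicates came from separate cultures is not stated either, so a p-value reflects the spread between these arrays alone, which may be technical.

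In a desmosome, cadherins of the desmoglein and desmocollin families bridge the gap between cells, plakoglobin and plakophilins bind their tails, and desmoplakin links that plaque to keratin filaments. In the cornified envelope, transglutaminases crosslink small proline-rich proteins, loricrin and involucrin, and lipids seal the outside. Cornification belongs to stratified epithelium, while desmosomes are also found in simple epithelia and heart muscle.

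All 10 genes lay below GFP in all 3 ezrinT567A-GFP arrays, by unlike amounts. Fabp5, Perp, Dmkn and Sprr1b, 4 of the 10, were at least 2-fold lower, by between -3.77 and -2.15 on the log2 scale. Pkp1 and Sfn were lower by -0.84 and -0.83. Sprr1a, Dsc2, Jup and the Dsp probe set that stood for the gene differed by between -0.40 and -0.15. The members' median difference (ezrinT567A-GFP mean minus GFP, as for every difference below) was -0.83, with medians of -0.88, -0.69 and -0.92 in replicates 1, 2 and 3, beside a median of 0.03 over all genes. Of all genes, 25.6% lay below GFP in all 3 arrays and 0.704% were at least 2-fold lower. Because the members were picked from this same contrast, their values are a description with no test, and nothing is read from these counts.

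The arrays gave deposited log2 values normalized with RMA, with medians between 3.85 and 3.89. Values carry no detection call, so the 95th percentile of 80 probe sets of olfactory and vomeronasal receptor genes, 3.64 on each array, was taken as the level below which a value is called near background. Precision is limited by the number of arrays, and GFP, with 1 array, has no spread of its own. A ± beside a difference below is the SD of the 3 ezrinT567A-GFP arrays alone, and so is not the error of that difference. Hybridization spike-ins averaged 10.1 to 11.1 in ezrinT567A-GFP and 9.32 in GFP, with the highest value in replicate 2. The 18S rRNA signal was 7.65, 11.3 and 7.76 in ezrinT567A-GFP replicates 1, 2 and 3 and 9.09 in GFP. Replicate 2 was thus the highest array on both readings. GFP stood apart as well, with the lowest spike-in average and an 18S signal between replicate 2 and replicates 1 and 3. Every difference rests on this GFP array, and the part of these readings in the differences was not tested. As for the labelled cell type, 6 of 9 osteoblast-lineage markers were analysed here. The matrix genes Col1a1 and Col1a2 were between 11.2 and 12.5 on every array, while the bone sialoprotein gene Ibsp was near background on all 4.

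**Figure D1:**
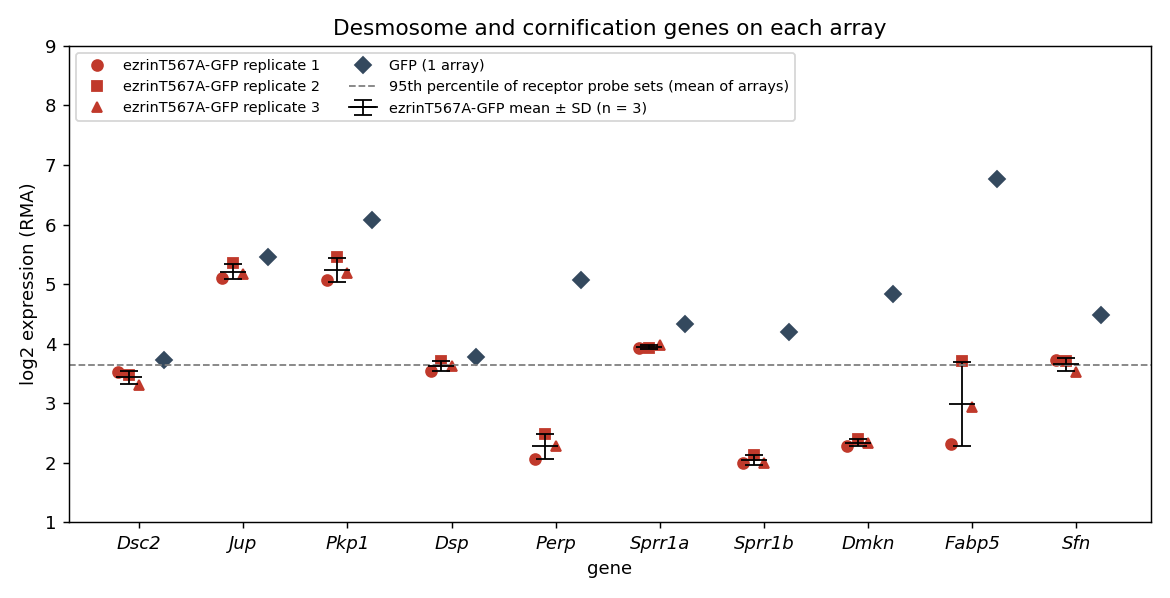
Log2 expression (vertical axis) of the 10 genes on each array, with the 3 ezrinT567A-GFP arrays as red symbols, their mean ± SD (n = 3) as a black bar, and the GFP array as a diamond. The dashed line is the background level of 3.64. In all 10 genes the diamond lies above the red symbols, and for Perp, Sprr1b, Dmkn and Dsc2 all 3 red symbols lie under the line.

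The plaque and cadherin genes were considered first. Dsc2, which encodes a desmocollin, had log2 values of 3.52, 3.47 and 3.30 in ezrinT567A-GFP, against 3.73 in GFP. GFP was thus just above the background level and the 3 ezrinT567A-GFP arrays just under it, a difference of -0.30. Its other probe set read 1.87, 1.78 and 1.75 in ezrinT567A-GFP and 1.83 in GFP. Near background on every array, it showed no separation of the groups and was the exception among the 14 probe sets, the other 13 lying below GFP in all 3 arrays. Both Dsc2 probe sets thus lay at or near the background level.

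Jup encodes plakoglobin, the armadillo protein shared by desmosomes and adherens junctions. It read 5.11, 5.35 and 5.17 in ezrinT567A-GFP, against 5.46 in GFP, above background on all 4 arrays. The groups did not overlap, but replicate 2 came within -0.11 of GFP, and the mean difference was -0.25 (1.19-fold lower). Beta-catenin, Ctnnb1, the nearest relative of plakoglobin and a core protein of adherens junctions, was lower by -0.34 (SE 0.08), short of the threshold in limma (adjusted p = 0.257 over all genes).

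Pkp1 encodes plakophilin 1, which strengthens desmosomes in the upper epidermis. Its values were 5.07, 5.46 and 5.18 in ezrinT567A-GFP, against 6.08 in GFP, a difference of -0.84 (1.79-fold lower) with every array well above background. Jup and Pkp1 were the 2 members brighter, averaged over the arrays, than the median gene. Pkp1 lies on chromosome 1, whose 510 genes above that median had a median difference of -0.34. The part of this shift in the Pkp1 difference was not tested.

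Dsp encodes desmoplakin, the linker from the plaque to keratins, and its probe sets split. The one that stood for the gene read 3.53, 3.70 and 3.63 in ezrinT567A-GFP and 3.77 in GFP, a difference of -0.15 at the background level. A second probe set read 2.27, 3.71 and 2.47 in ezrinT567A-GFP, against 4.83 in GFP. The third read 1.81, 3.21 and 2.17 in ezrinT567A-GFP, against 4.92 in GFP. These 2 gave differences of -2.01 ± 0.78 and -2.52 ± 0.73 (SD, n = 3), with GFP above background and replicate 2 the highest of the ezrinT567A-GFP arrays. Ranking by mean level over all arrays thus picked the flat probe set, and with the mean of the 3 probe sets the Dsp difference was -1.56.

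Perp encodes a tetraspan membrane protein that desmosomes need in stratified epithelia, and which p53 and p63 are known to induce. It read 2.06, 2.48 and 2.28 in ezrinT567A-GFP, against 5.07 in GFP. The GFP value stood clear of background and all 3 ezrinT567A-GFP values lay within it, so the difference of -2.79 ± 0.21 (SD, n = 3; 6.93-fold lower) has an uncertain size. By size of the difference on the lower side, Perp stood at rank 9 of all genes.

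**Figure D2:**
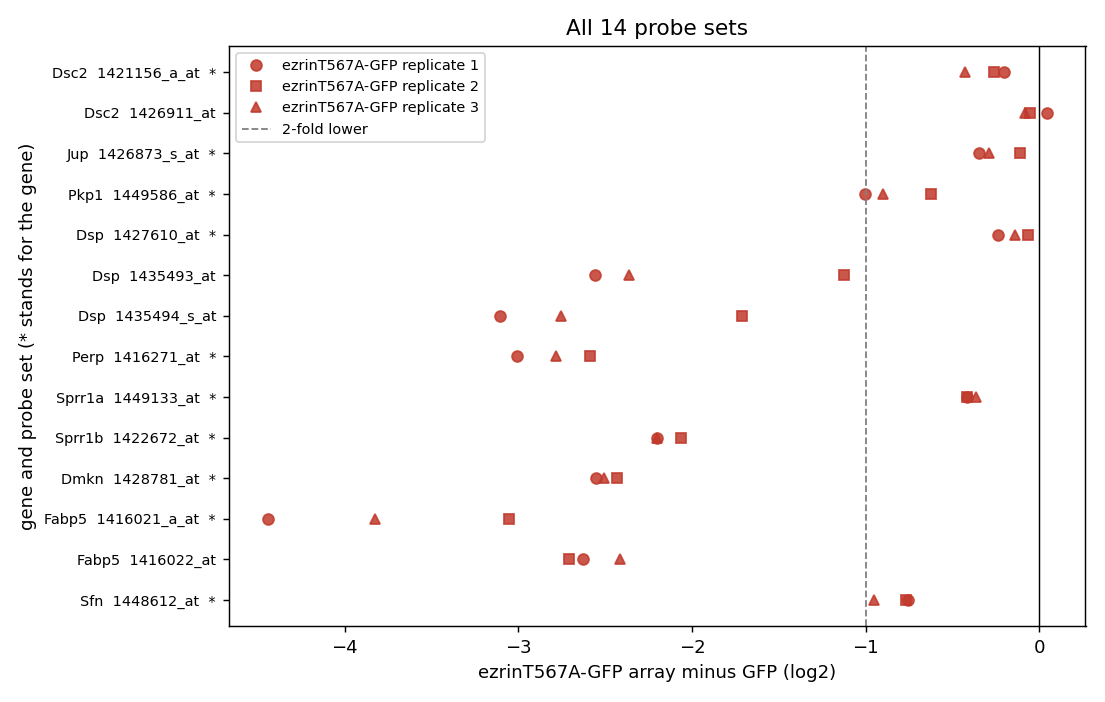
Difference of each ezrinT567A-GFP array from GFP (log2, horizontal axis) for all 14 probe sets of the 10 genes, with a symbol for each replicate and an asterisk on the probe set that stood for the gene. The 2 unmarked Dsp probe sets lie beyond the 2-fold line on all 3 arrays, while the marked one lies between -0.24 and -0.06.

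By the probe sets that stood for them, further desmosome genes had small differences. Of 13 further cadherin and plaque genes listed, 10 were measured, 6 of them lower and 4 higher, their median being -0.09. At least 2-fold apart were 0 of the 10, where 0.704% of all genes were lower and 0.973% higher by that much. With limma 0 of the 10 passed over all genes, as did 0% of all 18193 genes. An unadjusted p under 0.05 was found for 1 lower gene (Dsc3, -0.29, SE 0.09) and 1 higher gene (Dsc1, 0.30, SE 0.11), where 6.5% of all genes were lower and 7.46% higher at that level. Both are desmocollins whose values lay near background on every array, as were those of Dsg1a, Dsg1b and, but for replicate 2, the desmoglein Dsg2 (3.43, 4.02 and 3.39 in ezrinT567A-GFP, 3.43 in GFP). A second Dsc3 probe set differed by -0.595 and the further Dsg2 probe sets by between -0.69 and 0.08, all near background on all 4 arrays. The plaque genes were above background on all 4 arrays. Pkp3 was lower by -0.22 (SE 0.17, adjusted p = 0.639 with limma) and Pkp4, a plakophilin relative of many tissues, by -0.20 (SE 0.11, adjusted p = 0.492), and the scaffold genes Evpl and Ppl differed by -0.07 and 0.09.

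Desmosomes anchor keratins, and among 13 keratins 8 were lower and 5 higher, with 5 at least 2-fold lower, where 0.704% of all genes were. The basal keratins Krt17 (-2.54, SE 0.17, adjusted p = 0.146 with limma), Krt5 (-2.05, SE 0.14, adjusted p = 0.146) and Krt14 (-2.80, SE 0.43, adjusted p = 0.2003) were among these 5. The ezrinT567A-GFP readings of Krt17 were near background, so its size is uncertain. Probe sets of these genes disagreed: a second Krt17 probe set, near background on all 4 arrays, differed by -0.20, and the further Krt14 probe sets differed by -2.54 and, near background on all 4 arrays, by 0.08. Krt6a, a keratin of activated keratinocytes, read 4.46, 5.50 and 4.80 in ezrinT567A-GFP, against 8.47 in GFP, apart by -3.55 (SE 0.43, adjusted p = 0.187 with limma), with -1.75 and -1.29 from its further probe sets. Its partner Krt16 was lower by -1.60 (SE 0.19, adjusted p = 0.187). Limma called 0 of the 13 over all genes, and 7, all lower, had an unadjusted p under 0.05, where 6.5% of all genes did.

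The adherens junction core, measured for 8 genes besides Jup, had 3 lower and 5 higher, the median was 0.04 and limma called 0. At least 2-fold lower were 2 of the 8, both cadherins, where 0.704% of all genes were. Cdh1, the epithelial cadherin, read 2.70, 3.43 and 2.66 in ezrinT567A-GFP, near background, against 4.21 in GFP, and was lower by -1.28 (SE 0.36, adjusted p = 0.287). Cdh11, the cadherin of mesenchymal and osteoblastic cells, was lower by -2.0 (SE 0.61, adjusted p = 0.303), with values of 7.91, 6.43 and 6.93 in ezrinT567A-GFP and 9.09 in GFP. The actin linker Vcl was higher by 0.50. Over the 8 genes the differences ran from -2.0 to 0.50.

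Envelope precursors and secreted epidermal proteins came next. Sprr1b, a small proline-rich protein that transglutaminases build into the envelope, read 2.0, 2.13 and 2.0 in ezrinT567A-GFP, against 4.20 in GFP. GFP stood above background and the 3 ezrinT567A-GFP arrays under it, so the difference of -2.15 ± 0.08 (SD, n = 3; 4.45-fold lower) is likewise uncertain in size. Its paralogue Sprr1a read 3.92, 3.92 and 3.98 in ezrinT567A-GFP and 4.34 in GFP, above background on all 4 arrays. The groups were apart for Sprr1a too, by -0.40 ± 0.03 (SD, n = 3), and each gene had a single probe set.

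Sprr1a and Sprr1b lie on chromosome 3 in the epidermal differentiation complex, with Sprr3 the measured gene between them. From S100a1 to S100a10, the ends of the stretch examined, 47 measured genes were not members. Among these 47, Sprr2h was the only gene at least 2-fold apart, and their median difference was -0.0013. Sprr2h read 2.79, 2.83 and 2.72 in ezrinT567A-GFP, against 4.11 in GFP, apart by -1.33 (SE 0.10, adjusted p = 0.153 with limma). Its probe set is of the _s_at kind, which several transcripts can share, so the near-identical Sprr2 genes may not be told apart. The direct neighbours Sprr2k, Sprr3 and Ivl (involucrin) differed by 0.07, 0.14 and 0.31.

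Because these paralogues are neighbours with unlike differences, their promoter windows are shown, with those of Dmkn, from RefSeq on build GRCm38.p6, each running 5′ to 3′ from 250 bases before to 50 after an annotated start. Capitals mark TGANTCA, the letters bound by AP-1 (a factor of Jun and Fos proteins), and TATAAA. Sprr1b is chr3:92438730-92439029 on the minus strand and Sprr1a chr3:92485832-92486131 on the minus strand. Dmkn has an upstream start, chr7:30763506-30763805, and an internal start, chr7:30776155-30776454, both on the plus strand.
Sprr1b: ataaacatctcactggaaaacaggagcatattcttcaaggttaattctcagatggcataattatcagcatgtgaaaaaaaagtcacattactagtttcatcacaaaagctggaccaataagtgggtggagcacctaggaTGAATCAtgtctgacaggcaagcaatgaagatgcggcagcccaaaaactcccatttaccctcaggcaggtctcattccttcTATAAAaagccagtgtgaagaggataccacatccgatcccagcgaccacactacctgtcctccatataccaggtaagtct
Sprr1a: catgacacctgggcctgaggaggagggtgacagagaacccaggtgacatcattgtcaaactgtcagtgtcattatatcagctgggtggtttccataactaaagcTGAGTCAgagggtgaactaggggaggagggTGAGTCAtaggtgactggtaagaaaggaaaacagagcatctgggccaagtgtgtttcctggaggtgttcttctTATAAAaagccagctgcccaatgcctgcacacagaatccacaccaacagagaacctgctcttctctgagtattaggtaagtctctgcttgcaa
Dmkn upstream start: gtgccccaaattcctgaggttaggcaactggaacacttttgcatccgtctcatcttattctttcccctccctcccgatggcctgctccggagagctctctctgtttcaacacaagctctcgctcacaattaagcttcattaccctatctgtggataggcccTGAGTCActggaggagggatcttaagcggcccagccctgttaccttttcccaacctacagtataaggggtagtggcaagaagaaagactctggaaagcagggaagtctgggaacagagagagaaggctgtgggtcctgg
Dmkn internal start: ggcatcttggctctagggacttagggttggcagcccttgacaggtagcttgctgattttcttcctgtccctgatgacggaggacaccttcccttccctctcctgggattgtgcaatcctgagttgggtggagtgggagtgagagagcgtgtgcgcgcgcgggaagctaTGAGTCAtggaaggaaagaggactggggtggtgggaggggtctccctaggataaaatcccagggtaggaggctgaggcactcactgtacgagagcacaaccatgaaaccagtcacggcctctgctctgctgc

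TGANTCA began 111 bases before the start in Sprr1b and 146 and 116 bases before it in Sprr1a, and TATAAA 30 and 43 bases before the start in the same genes. In Dmkn, TGANTCA began 89 bases before the upstream start and 82 before the internal one. Windows were in the table for 6 of the 10 members, and TGANTCA (read on both strands, no overlap with TATAAA) was in those of 3, Sprr1a, Sprr1b and Dmkn, and in none of the windows of Sfn, Jup and Dsp. Of 32851 promoter windows of the same length 7.81% held TGANTCA and 13.6% held TATAAA on either strand. These shares count windows, while the members were counted as genes, and the 6 members had 8 windows. A further Dmkn window, chr7:30763508-30763807, overlaps the upstream one, also holds TGANTCA and is not shown. A match describes the letters and shows no binding. The letters found were TGAATCA in Sprr1b and TGAGTCA in Sprr1a and Dmkn. The Sprr1b match thus has A where the AP-1 site has G or C. Both Sprr1a and Sprr1b hold TATAAA, and their differences were -0.40 and -2.15.

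Dmkn encodes dermokine, a protein secreted by the upper epidermal layers. Its values were 2.28, 2.40 and 2.33 in ezrinT567A-GFP, against 4.83 in GFP. All 3 ezrinT567A-GFP arrays lay near background, so the difference of -2.50 ± 0.06 (SD, n = 3; 5.65-fold lower) has an uncertain size, and its narrow SD is that of values near background. On chromosome 7 its measured neighbours are Sbsn (suprabasin) and Krtdap (keratinocyte differentiation-associated protein), both also secreted by differentiating keratinocytes. Krtdap read 3.01, 3.71 and 2.97 in ezrinT567A-GFP, against 4.68 in GFP, apart by -1.45 (SE 0.35, adjusted p = 0.266 with limma). Sbsn, by contrast, read 7.35, 6.32 and 6.82 in ezrinT567A-GFP and 6.85 in GFP, with GFP inside the range of the replicates and a difference of -0.02. Of the neighbours, Krtdap had all replicates below GFP, where 25.6% of all genes had, and Sbsn had not. Dmkn had too, but was chosen with this contrast known.

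Chromosomal neighbours of all members were then examined. The nearest measured genes on either side of each member, an order examined after the members' values were known, gave 19 genes that were not members. Of these 1, Krtdap, was at least 2-fold lower, where 0.704% of all genes were, and 1, Hap1 beside Jup, was at least 2-fold higher (1.06), where 0.973% were. Their median difference was 0.04.

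Beyond the members, 49 of 61 listed genes of the cornified envelope and of its crosslinking and proteolysis were measured. They split into 27 lower and 22 higher, the median being -0.0069. In all 3 ezrinT567A-GFP arrays 18 of the 49 lay below GFP, where 25.6% of all genes did, and 10 lay above it. At least 2-fold lower were 2 (Krtdap and Sprr2h), where 0.704% of all genes were, and 0 were at least 2-fold higher, where 0.973% were. Limma called 0 of the 49 over all genes, and their differences ran from -1.45 to 0.51. Serpinb5 (maspin), a serpin of epithelial cells, was lower by -0.78 (SE 0.12, adjusted p = 0.199) from a GFP value of 4.10, but its 3 further probe sets, near background, differed by between -0.10 and 0.04. The protease inhibitor Cst6 was lower by -0.37 (SE 0.12, adjusted p = 0.323) and the epidermal lipase relative Pnpla1 by -0.44 (SE 0.12, adjusted p = 0.284). The late envelope gene Lce1h was lower by -0.40 (SE 0.12, adjusted p = 0.305), and 24 of the 49 genes lay above background in GFP.

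Fabp5, the epidermal fatty acid-binding protein, carries fatty acids in keratinocytes and in many tumour cells. Its leading probe set read 2.32, 3.71 and 2.93 in ezrinT567A-GFP, against 6.76 in GFP. GFP stood far above background, whereas replicates 1 and 3 lay under the background level and replicate 2 just over it, at a value that 178 other probe sets of that array repeat exactly. The difference was -3.77 ± 0.70 (SD, n = 3; 13.7-fold lower), rank 2 of all genes by size on the lower side, and this SD was the largest among the members. The other probe set read 2.65, 2.56 and 2.86 in ezrinT567A-GFP, against 5.27 in GFP, a difference of -2.58. In both probe sets all 3 ezrinT567A-GFP arrays lay below the 1 GFP array, a description, since Fabp5 was chosen with this contrast known. The size rests on values near background, and probe matches to similar copies of Fabp5 elsewhere in the genome were not checked.

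The 8 further fatty acid-binding protein genes differed by between -0.03 and 0.13, with 0 past limma's threshold and 0 at an unadjusted p under 0.05, and 5 of them lay near background in GFP. Of 12 further genes of epidermal barrier lipids, 4 were lower and 8 higher, and limma called 0 over all genes. The ceramide-pathway gene Smpd1, encoding acid sphingomyelinase, was higher by 0.45 (SE 0.14, limma adjusted p = 0.302) and the fatty acid transporter gene Slc27a4 by 0.45 (SE 0.13, adjusted p = 0.297). Elovl1, a fatty acid elongase, was higher by 0.47 (SE 0.21, adjusted p = 0.413), and the lipid transporter gene Abca12, at the edge of background, was lower by -0.40 (SE 0.16, adjusted p = 0.391).

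Sfn encodes 14-3-3 sigma, the epithelial member of a family of phosphoserine-binding adaptors and a known p53 target. Its values were 3.72, 3.71 and 3.52 in ezrinT567A-GFP, against 4.48 in GFP. The ezrinT567A-GFP arrays lay at the background level and GFP above it, a difference of -0.83 ± 0.11 (SD, n = 3; 1.77-fold lower). The other 6 genes of the 14-3-3 family, which are used by nearly every cell, differed by between -0.27 and 0.09, with 0 past limma's threshold and 0 at an unadjusted p under 0.05.

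**Figure D3:**
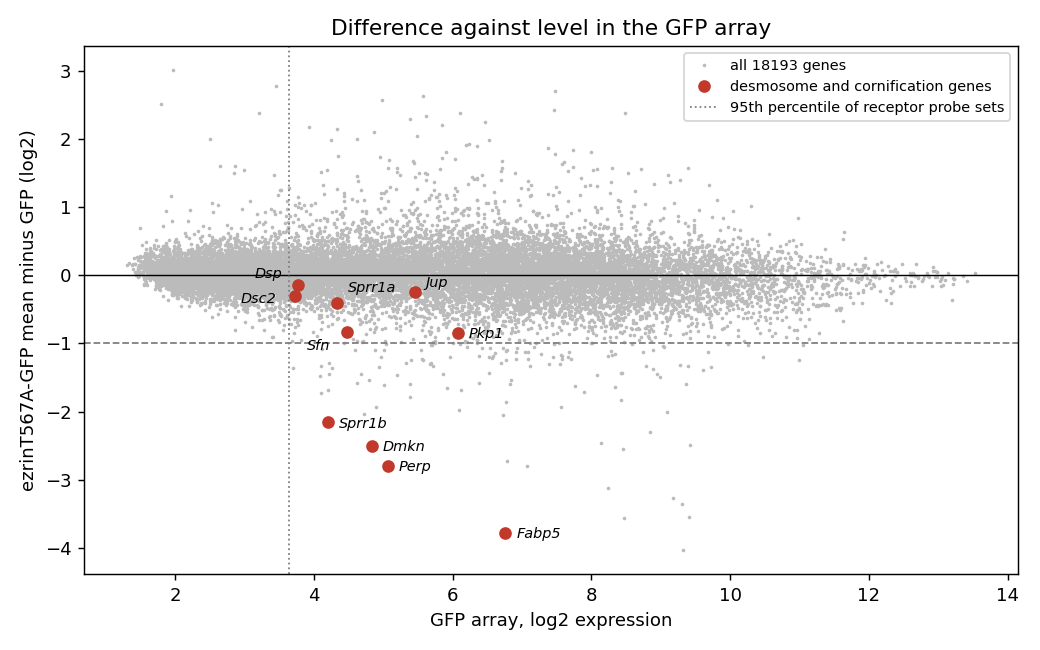
Difference between ezrinT567A-GFP (mean of 3 arrays) and GFP on the log2 scale (vertical axis) against the log2 level in the GFP array (horizontal axis), for all 18193 genes in grey and the 10 genes in red. The dashed line is 2-fold lower and the dotted line the background level. Fabp5, Perp, Dmkn and Sprr1b lie under the dashed line, and all 10 lie to the right of the dotted one.

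Of 18 measured transcription factors of the epidermal programme, 9 lay above background in GFP. In these 18, 7 were lower and 11 higher, the median was 0.08 and limma called 0 over all genes. The largest fall was that of Tfap2a (-0.38, SE 0.12), and the highest difference among the 18 was 0.31. Further Tfap2a probe sets disagreed in direction, differing by 0.14 and -0.21. Trp63, encoding the p63 factor that commands stratified epithelium, read 3.17, 3.59 and 3.28 in ezrinT567A-GFP and 3.66 in GFP, so that GFP sat at the background level and the others under it. The S100 genes that share the epidermal differentiation complex were lower in 9 of 11 cases, with a median of -0.22 and 0 past the threshold. Below GFP in all 3 ezrinT567A-GFP arrays were 6 of the 11, where 25.6% of all genes were. S100a14 differed by -0.76 (SE 0.15) and S100a10, the annexin A2 partner, by -0.37 (SE 0.08).

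**Figure D4:**
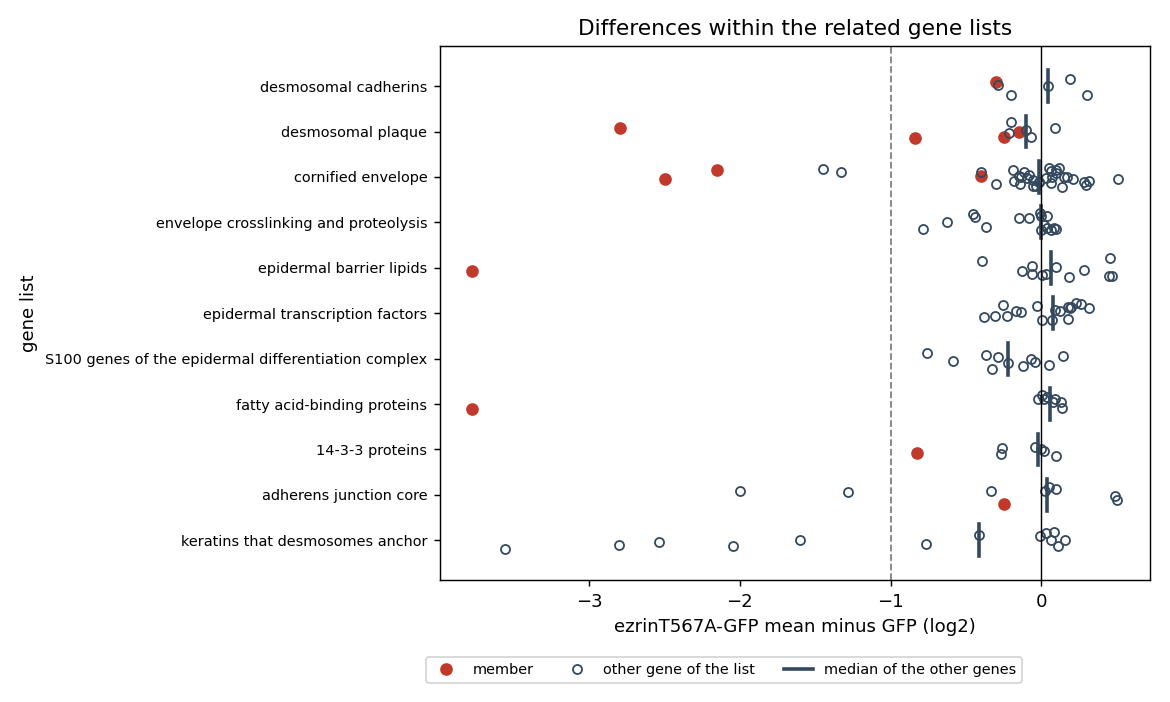
Differences (ezrinT567A-GFP mean minus GFP, log2, horizontal axis) for the measured genes of 11 related lists, with members filled red, other genes open and the median of the other genes as a vertical bar. Outside the keratins, the medians of the other genes lie between -0.22 and 0.08, and members stand to the left of them.

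Epithelial markers, summed, were also lower in ezrinT567A-GFP, and the fall in the sum lay in Krt5 and Krt14. In GFP these read 6.73 and 7.07, against at most 4.75 and 4.83 in ezrinT567A-GFP. Of 11 epithelial markers 6 were above background on each ezrinT567A-GFP array and 8 in GFP, and their summed linear signal was 404.9 to 468.8 in ezrinT567A-GFP against 589.9 in GFP. Below GFP in all 3 ezrinT567A-GFP arrays were 7 of the 11, where 25.6% of all genes were, and 3, Krt14 (-2.80), Krt5 (-2.05) and Cdh1 (-1.28), were at least 2-fold lower. The epithelial adhesion gene Epcam differed by -0.43. Krt18, Krt19 and Esrp1 were near background on all 4 arrays. Itgb4, the brightest of the 11 on every array, was higher by 0.39 (8.09, 8.03 and 7.96 in ezrinT567A-GFP, against 7.63 in GFP). Grhl2 was higher by 0.26, mostly through replicate 2 (5.28, 5.89 and 5.20 in ezrinT567A-GFP, against 5.19 in GFP). In RNA from bulk cultures, fewer cells of a type and less RNA per cell cannot be told apart, and the part of the epithelial markers in the members' differences was not tested. Leukocyte markers summed to 3870 to 4858 in ezrinT567A-GFP and 3930 in GFP, nearly all of it Csf1r, while the pan-leukocyte Ptprc was near background throughout. Endothelial markers summed to 36.2 to 41.6 in ezrinT567A-GFP and 39.4 in GFP.

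Among the ezrinT567A-GFP arrays the members did not vary alike. Replicate 2 was the highest of the 3 for 7 of the 10 genes, where it was the highest for 33.7% of all genes. The same array gave the top 18S and spike-in readings, and their part in this was not tested. Standard deviations ran from 0.03 for Sprr1a to 0.70 for Fabp5, beside a median of 0.13 over all genes.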

How the data were processed

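Per the labels' protocols, total RNA of K7M2 cells was labelled by the one-cycle Affymetrix assay. The deposited log2 values per probe set were made with RMA, per the submitters' processing notes, with software and version not given in the sources used here. The log2 scale was read from their range, 1.18 to 13.7. RMA makes arrays alike in distribution, so a change in total RNA is not seen and low values are compressed.

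The platform annotation named the probe sets (34958 of 45101 had 1 gene symbol, 932 several, 9211 none). Probe sets that were controls or had several or no genes were not used, leaving 18193 genes. Gene IDs were matched to GRCm38.p6 for chromosomes and neighbours (34741 matched). No filter on low values was used.

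Genes other than members were tested, ezrinT567A-GFP (3 arrays) against GFP (1 array), with limma 3.58.1 in R 4.3.3 (lmFit, eBayes with mean trend, two-sided), with Benjamini-Hochberg adjustment over all genes at 0.05. SE is moderated, and the residual degrees of freedom were 2. GFP, with its lone array, was taken to vary as the other group does, and p = 0.25 is the smallest that exact permutation allows. No p is given for members. The fit was run on simulated arrays in which all genes shared a common SD, unlike these data. Only the size of its estimates was checked there, and not its calls. Members and lists were chosen with earlier results of these data known. All members are named. From each list the text names some of the 4 other genes with the smallest p and those at least 2-fold apart, and other named genes were chosen after their values were seen. Alternatives were quantile normalization, median centring, the mean of probe sets, leaving out shared probe set kinds, dim genes or each replicate, other priors, and the lower quartile as background. Figures used matplotlib 3.10.9 in Python 3.11.15.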

Additional observations from a re-analysis of the deposited data

How the results depend on the processing

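All 69 member differences recomputed under the alternatives stayed below 0, and of 144 recomputed values 128 moved by less than the replicate spread or, for counts, by no more than 1.5 times. The members' median was -1.20 with the mean of probe sets, where Dsp moved to -1.56 and Dsc2 to -0.16, and without the _s_at, _x_at and _a_at kinds Fabp5 was -2.58 and Dsc2 -0.03. On leaving out a replicate the members' median ran from -0.90 to -0.79. Limma called 0 genes in the report's setting, with 2540 at an unadjusted p under 0.05, but 34 after quantile normalization, 30 after median centring, 9 under a robust prior, 6 on averaging probe sets and 3 without dim genes. The cause was not tested. Of the envelope and processing genes 1, Sprr2h, was called after quantile normalization and 1, again Sprr2h, after median centring. The median of these genes was near 0 throughout, from -0.0354 without replicate 2 to 0.0242 without replicate 1. With the lower quartile of all probe sets the background level was 2.58 in place of 3.64, and 3 members in place of 4 lay under it on all ezrinT567A-GFP arrays. No paired analysis was possible because GFP had 1 array with no replicate number. Leaving out the GFP array was not possible either.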

Other observations

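Many probe sets carried exactly the same number as others on their array, to 6 decimals: 10945 to 12682 of 45101 on the ezrinT567A-GFP arrays and 11725 on the GFP array. Among values at or below the background level 34.3% to 38.1% recurred on the ezrinT567A-GFP arrays and 35.8% on the GFP array, and above it 15.6% to 19.6% and 17.3%. In replicate 2 the leading Fabp5 probe set, the second Dsp probe set and Krtdap all read 3.71, a value that 178 other probe sets shared with Fabp5. Of the 42 member values on ezrinT567A-GFP arrays 10 recurred in this way, and of the 14 on the GFP array 2 did, those of Sprr1a (56 other probe sets) and Jup (28 other probe sets). The third Dsp probe set, also highest in replicate 2 at 3.21, shared its value with 0 others. What produced these repeats was not tested.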
